A study of Mus musculus with 6 samples.

Results

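The nuclear genes of the mitochondrial respiratory chain and ATP synthase were described in whole-liver RNA from mice with a hepatocyte-specific deletion of Mettl3 and from floxed mice. Members were the protein-coding genes whose symbols begin with Nduf, Uqcr, Cox4 to Cox8 or Atp5, together with Sdha, Sdhb, Sdhc and Sdhd. This rule found 92 of the 54086 features measured: 38 complex I subunits, 8 complex I assembly factors, 4 genes of complex II, 8 of complex III, 18 of complex IV and 16 of complex V. The HKO group (Mettl3-HKO, n = 3) and the Mettl3 flox/flox group (n = 3) were both 8 weeks old and fed normal chow. METTL3 is the catalytic part of the enzyme complex that writes m6A, a methyl mark on adenosine, into mRNA, and a floxed allele stays intact until Cre recombinase cuts it. The Cre promoter, the deleted exons and the sex of the animals were not given in the labels.

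Oxidative phosphorylation takes place in the inner mitochondrial membrane. Complexes I and II pass electrons from NADH and succinate to coenzyme Q, complex III passes them on to cytochrome c and complex IV to oxygen, while complexes I, III and IV pump the protons whose return through complex V makes ATP. Most subunits are encoded in the nucleus, a few in the mitochondrial genome. Hepatocytes, which are rich in mitochondria, use the chain to pay for urea synthesis and gluconeogenesis, while the oxidation of fatty acids feeds electrons into it. The name rule leaves out chain proteins with other names, such as cytochrome c1 (Cyc1), and it places Ndufa4 with complex I, although later work assigned that protein to complex IV.

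Levels are given as FPKM, that is, sequenced fragments divided by gene length and by a depth factor of the authors. Rebuilt totals were 16637541 to 17993545 reads in the libraries labelled HKO and 16529358 to 18556076 reads in the flox/flox libraries. The authors' scaling was not by library total, and FPKM summed over all features to 318212 to 360226 in HKO, against 453837 to 542601 in flox/flox, so a level in FPKM and a share of reads can differ in direction. Mettl3 itself was measured at 2.45, 2.14 and 2.06 FPKM in HKO and 1.88, 2.17 and 1.98 FPKM in flox/flox livers (log2 fold change 0.09, limma adjusted p = 0.582). The gene-level value was thus not lower in the libraries labelled HKO, and with the deleted exons unknown it does not check the labels. HKO and flox/flox therefore stand here for what the labels say. Whole liver holds other cells than hepatocytes, and fewer cells of a type and less RNA per cell cannot be told apart.

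Promoter windows of 4 members are shown first, because these genes lay on either side of the comparison: Ndufb3, Sdhb and Atp5l were among the members that fell, and Uqcrfs1 was the only tested member with all 3 HKO values above all 3 flox/flox values. Each window runs from 250 bases before to 50 bases after the annotated start (RefSeq, GRCm38.p6) and is written 5′ to 3′ on the gene's strand. Capitals mark matches, on either strand, to GCATGCGC (the core of the nuclear respiratory factor 1 site), CCGGAAG (an ETS and GABP core), AAGATGGC (YY1), GGGCGG (a GC box), TATAAA (the TATA box) or AAGGTCA (an estrogen-related receptor half-site). The windows lie at chr1:58586147-58586446 (plus strand) for Ndufb3, chr4:140961021-140961320 (plus strand) for Sdhb, chr9:44920693-44920992 (minus strand) for Atp5l and chr13:30545267-30545566 (minus strand) for Uqcrfs1.
Ndufb3: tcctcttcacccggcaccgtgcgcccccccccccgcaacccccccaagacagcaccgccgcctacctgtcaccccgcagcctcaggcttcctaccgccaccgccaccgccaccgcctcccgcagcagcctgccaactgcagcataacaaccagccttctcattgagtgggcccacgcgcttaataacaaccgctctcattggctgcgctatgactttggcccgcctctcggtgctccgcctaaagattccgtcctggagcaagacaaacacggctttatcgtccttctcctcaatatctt
Sdhb: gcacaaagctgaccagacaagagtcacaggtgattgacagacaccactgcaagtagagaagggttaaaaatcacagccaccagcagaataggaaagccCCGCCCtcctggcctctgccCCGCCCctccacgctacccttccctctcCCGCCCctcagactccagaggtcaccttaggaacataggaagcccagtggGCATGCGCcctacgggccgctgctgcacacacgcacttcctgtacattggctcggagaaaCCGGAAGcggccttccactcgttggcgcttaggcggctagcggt
Atp5l: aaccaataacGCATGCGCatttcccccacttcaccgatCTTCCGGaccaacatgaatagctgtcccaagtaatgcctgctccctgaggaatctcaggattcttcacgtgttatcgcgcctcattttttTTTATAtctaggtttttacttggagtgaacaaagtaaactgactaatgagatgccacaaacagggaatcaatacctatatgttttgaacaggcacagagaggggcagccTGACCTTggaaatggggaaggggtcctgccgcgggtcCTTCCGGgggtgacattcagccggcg
Uqcrfs1: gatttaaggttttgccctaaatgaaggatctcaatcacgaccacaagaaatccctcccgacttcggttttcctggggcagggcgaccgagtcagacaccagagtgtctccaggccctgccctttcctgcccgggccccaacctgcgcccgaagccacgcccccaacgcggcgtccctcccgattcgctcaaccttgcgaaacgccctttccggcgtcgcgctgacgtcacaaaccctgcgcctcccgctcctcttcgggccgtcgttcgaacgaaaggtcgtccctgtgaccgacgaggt
No letters of the Ndufb3 and Uqcrfs1 windows matched. The Sdhb window held 1 nuclear respiratory factor 1 core, 1 ETS core and 3 GC boxes, and the Atp5l window held 1 nuclear respiratory factor 1 core, 2 ETS cores, 1 TATA box and 1 estrogen-related receptor half-site.

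RefSeq windows were found for 74 of the 92 members, 79 windows in all, and were compared with all 32851 windows of the same length. The nuclear respiratory factor 1 core was in 15.2% of member windows and 2.71% of all windows, the ETS core in 22.8% of member windows and 8.86% of all, and the YY1 core in 12.7% of member windows and 2.75% of all. The GC box was in 43.0% of member windows against 35.7% of all, the estrogen-related receptor half-site in 10.1% against 4.72%, and the TATA box in 10.1% against 13.6%. These 3 cores (nuclear respiratory factor 1, ETS and YY1) and the estrogen-related receptor half-site belong to factors known as activators of respiratory chain genes. Between the members that fell (16 windows) and those tested without a call (59 windows) the nuclear respiratory factor 1 core was in 4 and 8 windows, the ETS core in 3 and 14, and the YY1 core in 3 and 7. The TATA box was in 5 windows of the members that fell, from Atp5l, Ndufb7, Ndufs7 and both windows of Ndufa7, and in 1 window of the others, that of Ndufa3. These are counts of letters, without a test. The 16 windows are not 1 per member, since Ndufa2 and Ndufb9 had none and Ndufa5 and Ndufa7 had more than 1 each. The windows of Ndufa5 overlap in part, as do those of Ndufa7, so the same letters can be counted more than once.

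With the authors' scaling, the chain was lower as a group in HKO livers. Of the 92 members, 85 averaged at least 1 FPKM and were tested with all other such features by limma. At an adjusted p under 0.05, 16 of the 85 fell and 0 rose, where 6.86% of the 11086 tested features fell and 5.95% rose. At an unadjusted p under 0.05, 59 members were lower and 0 higher, where 19.8% of all tested features were lower and 14.0% higher. The log2 fold change was negative in 76 of the 85 members, as in 56.4% of all tested features. All 3 HKO values lay under all 3 flox/flox values in 66 members, as in 24.7% of all tested features, and above them in 1 member, as in 16.8% of features. The median log2 fold change was -0.39 over the members and -0.06 over all tested features. These shares are over features of all levels, and counts by level are given below.

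The fall was one of FPKM and not of the members' share of the reads. Summed over the 92 members, the level was 5785, 5449 and 5069 FPKM in HKO livers, against 7638, 6587 and 6946 FPKM in flox/flox livers, and the HKO mean was 77.0% of the flox/flox mean. The groups did not overlap. Their part of all reads was 1.05%, 0.967% and 0.997% in the HKO libraries, against 0.956%, 0.993% and 1.02% in the flox/flox libraries. Here the groups overlapped. When values were scaled by library totals, 0 members fell, where 1.92% of all features did, and 2 rose, Uqcrfs1 and Cox7a1, where 19.2% of all features did. At an unadjusted p under 0.05 by limma, 0 members were lower and 8 higher with that scaling. Even at the adjusted threshold 19.2% of all features rose with it. That scaling moved the median of all features up to 0.26 and the members' median to -0.01. Measured against the median of all features, the members' median was -0.33 with the authors' scaling, -0.27 with library totals and -0.10 after quantile normalization, and 74, 75 and 58 of the 85 members lay under the median of all features.

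The 16 calls were therefore tied to the scaling, and none was made with library totals, with a common sum that left out the 20 most abundant features, or after quantile normalization. With the common sum 0 members fell and 2 rose, Uqcrfs1 and Cox7a1, where 1.99% of all features fell and 21.3% rose. After quantile normalization 0 fell and 1 rose, Uqcrfs1, where 3.48% of all features fell and 5.86% rose, and 13 members were lower and 3 higher at an unadjusted p under 0.05. With the median of ratios of the tested features 5 fell, all complex I subunits, and 0 rose, where 4.47% of all features fell and 6.77% rose. They were also tied to single libraries: without flox/flox replicate 1 there were 11 calls, and without any 1 of the other 5 libraries there were 0, with 40 to 55 members still lower at an unadjusted p under 0.05. Over all features the lower calls were 735 without flox/flox replicate 1 and 13 to 163 without any 1 of the others, against 761 with all 6 libraries, so calls were lost across all features and not in the members alone. For the counts at an unadjusted p, the share of all features was taken only with the authors' scaling and all 6 libraries.

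**Figure D1:**
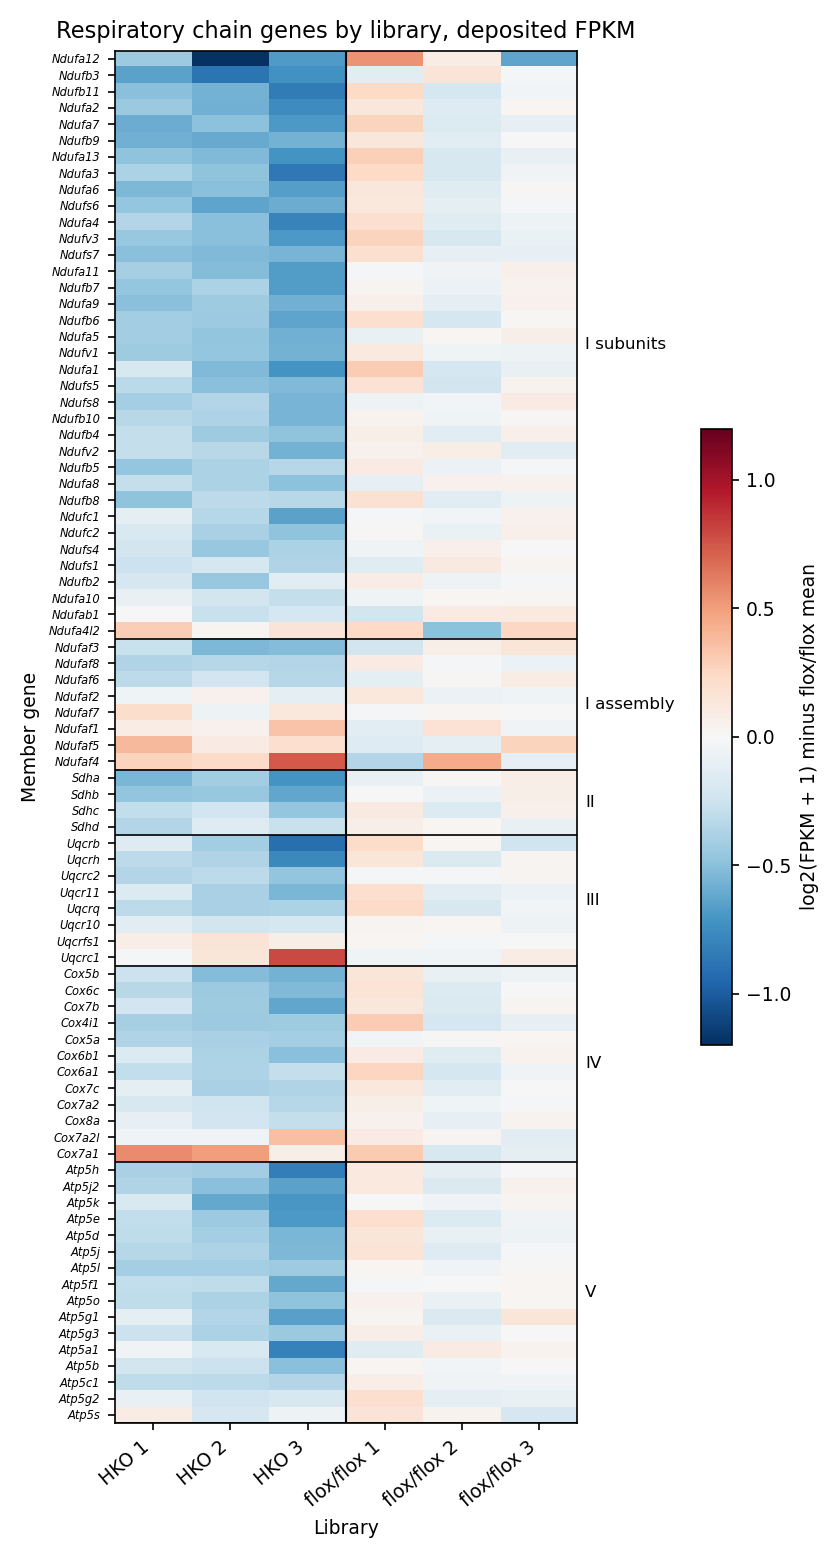
Level of 84 of the 85 tested members in each library as log2(FPKM + 1) minus the mean of the 3 flox/flox libraries, ordered by complex and then by fold change, with the libraries labelled HKO on the left. Blue fills most of the HKO columns of the subunit genes, and the complex I assembly factors, Uqcrfs1, Uqcrc1, Cox7a2l and Cox7a1 hold most of the red cells there.

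In the plot of single libraries the members moved together within a genotype. HKO replicate 1 was the highest of its group in 60 of the 85 members and HKO replicate 3 the lowest in 59, while flox/flox replicate 1 was the highest of its group in 56 and flox/flox replicate 2 the lowest in 55. The size factors of these libraries also differed, from 1.06 to 1.30 in HKO and from 0.858 to 0.892 in flox/flox. Their part in this order was not tested. FPKM summed over all features was also highest in flox/flox replicate 1 (542601) and lowest in HKO replicate 3 (318212). As a share of reads the order of the members differed. It was lowest of its group in flox/flox replicate 1 (0.956%) and in HKO replicate 2 (0.967%), and HKO replicate 1 stayed the highest of its group (1.05%). The median coefficient of variation of a member was 8.62% in HKO and 9.11% in flox/flox libraries. Over all tested features it was 12.8% in HKO and 16.3% in flox/flox. These sets differ in level, with a median of 51.5 FPKM for the members and 5.34 FPKM for all tested features. Spread was not compared at matched level.

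**Figure D2:**
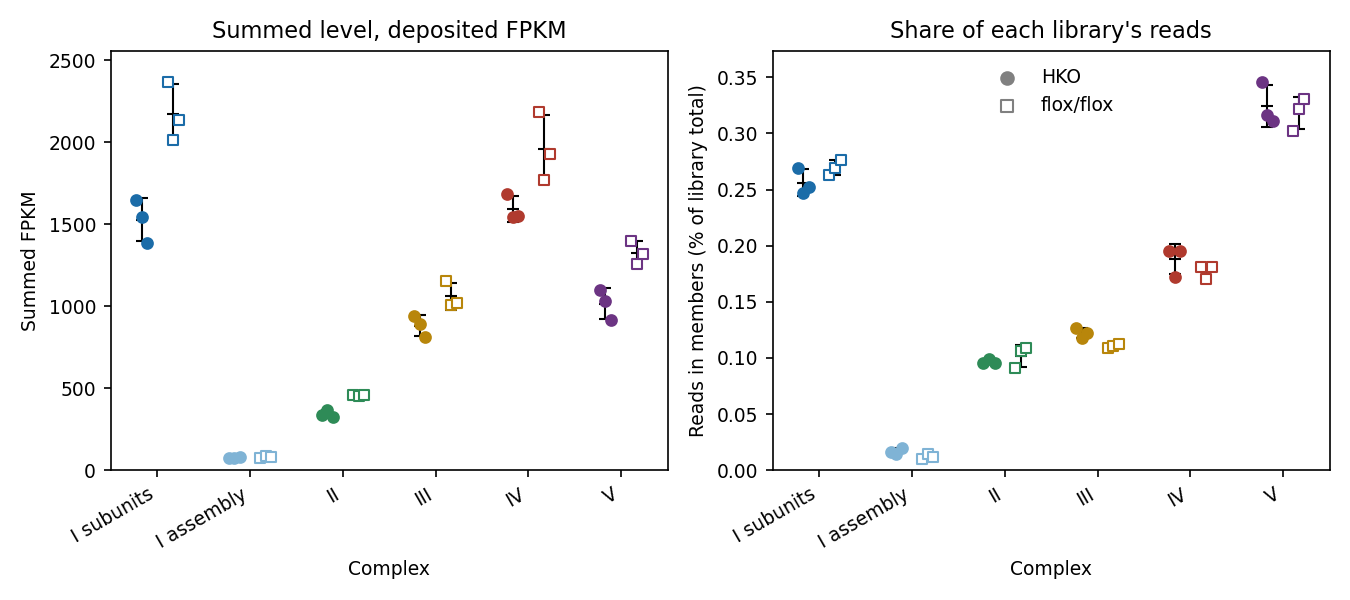
Summed FPKM (left) and share of all reads in percent (right) of the members of each complex, with filled circles for HKO and open squares for flox/flox libraries, and bars for the mean and SD of 3 libraries. In FPKM the 2 genotypes stand apart for every complex and overlap for the assembly factors, and in shares the genotypes overlap for complexes I, II, IV and V.

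In FPKM every complex summed to less in HKO than in flox/flox livers, by amounts that differed. Complex I subunits summed to 1526 ± 131 FPKM in HKO and 2172 ± 181 FPKM in flox/flox livers (SD, n = 3 each), which is 70.3% of flox/flox, the lowest figure of the 5 complexes. The sum in HKO was 75.2% of that in flox/flox for complex II, 76.6% for complex V, 81.1% for complex IV and 83.0% for complex III. The assembly factors of complex I stayed at 76.3 ± 4.88 FPKM in HKO, against 79.1 ± 5.37 FPKM in flox/flox (SD, n = 3 each), and the groups overlapped. As shares of reads, complex III took 0.122 ± 0.005% in HKO and 0.111 ± 0.002% in flox/flox libraries, and the assembly factors 0.0168 ± 0.0027% in HKO and 0.0120 ± 0.0023% in flox/flox. In both, all 3 HKO shares lay above all 3 flox/flox shares. The differences between complexes were not tested.

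**Figure D3:**
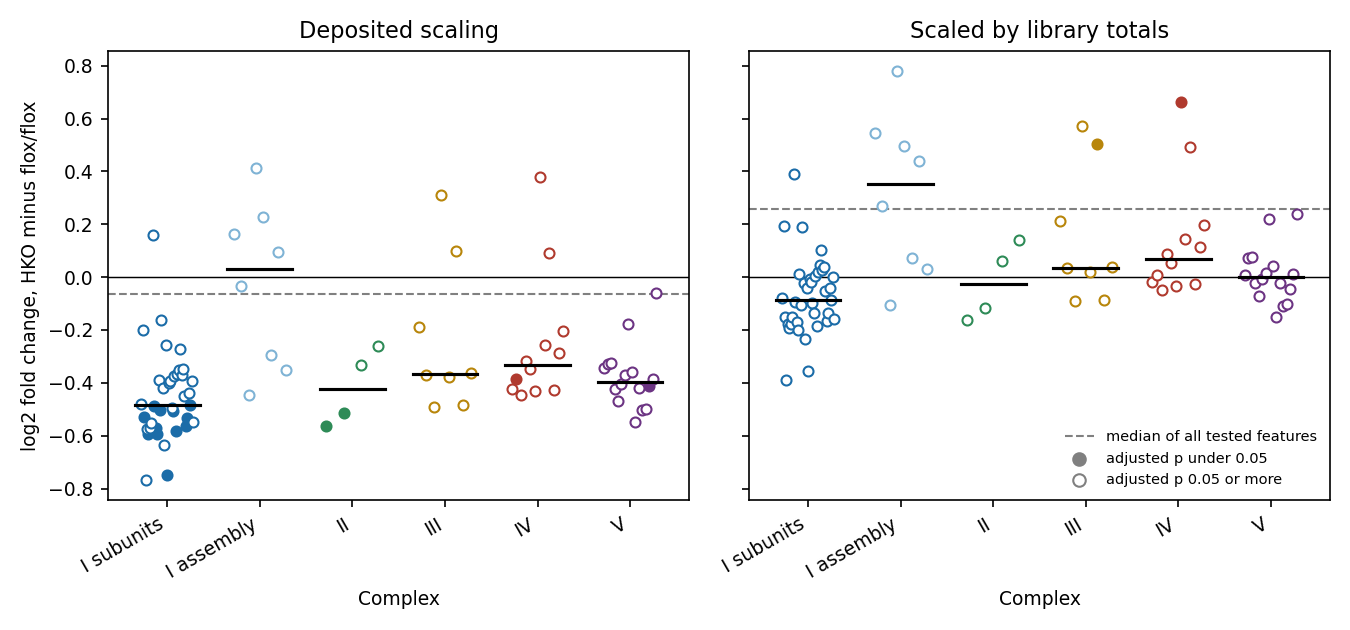
Log2 fold change (HKO minus flox/flox) of each tested member by complex, with the authors' scaling (left) and with values scaled by library totals (right). Filled points passed an adjusted p of 0.05, black bars are the medians of the complexes and dashed lines the median of all tested features, -0.06 on the left and 0.26 on the right.

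Complex I, the NADH dehydrogenase, held most of the calls. Of its 37 tested subunits 12 fell and 0 rose, where 6.86% of all tested features fell and 5.95% rose. In 33 subunits all HKO values lay under all flox/flox values, as in 24.7% of all tested features. The median log2 fold change of the subunits was -0.49. With library totals the median was -0.09 and no subunit was called. Ndufb3, an accessory subunit of the membrane arm (chromosome 1, 58586384 to 58595964, plus strand), had the lowest adjusted p of all members. It was measured at 35.8, 30.4 and 33.7 FPKM in HKO livers, against 51.5, 63.2 and 55.7 FPKM in flox/flox livers. Every HKO library was well under every flox/flox library, which gave a log2 fold change of -0.75 (SE 0.13, adjusted p = 0.0223) with a 95% interval of -1.05 to -0.44. With library totals it was -0.35 with an adjusted p of 0.164.

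The next falls by size were also in accessory subunits, which surround the catalytic core, and many of which are needed for its assembly. Ndufa2 was at 94.5, 86.0 and 75.9 FPKM in HKO and 141, 116 and 131 FPKM in flox/flox livers (log2 -0.59, adjusted p = 0.0426). Ndufa7 was at 29.7, 32.0 and 27.7 FPKM in HKO, against 54.7, 40.3 and 42.4 FPKM in flox/flox (log2 -0.59, adjusted p = 0.0473). Ndufb9, a membrane arm subunit, was at 47.8, 46.9 and 48.1 FPKM in HKO, against 78.9, 65.3 and 71.7 FPKM in flox/flox (log2 -0.58, adjusted p = 0.0301). None of these 3 overlapped between the groups, and in all 3 the highest flox/flox value came from replicate 1. Of the exon bases of Ndufa2 11.5% overlap an opposite-strand gene, and of those of Ndufb9 19.5% overlap a gene on the same strand. The other 6 accessory subunits that fell were Ndufa6, Ndufs6, Ndufa11, Ndufb7, Ndufa9 and Ndufa5, with log2 fold changes from -0.57 for Ndufa6 to -0.49 for Ndufa5 and adjusted p-values from 0.0327 for Ndufa11 to 0.0387 for Ndufa5.

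The core subunits carry the flavin and the iron-sulfur clusters that move electrons from NADH to coenzyme Q. Ndufv1, which binds NADH and the flavin, was at 53.3, 51.9 and 48.4 FPKM in HKO, against 78.0, 69.6 and 68.8 FPKM in flox/flox (log2 -0.49, adjusted p = 0.0409). Ndufs7, which holds the last cluster before coenzyme Q, was at 37.5, 36.9 and 36.1 FPKM in HKO, against 61.5, 50.1 and 50.2 FPKM in flox/flox (log2 -0.53, adjusted p = 0.0401). Both fell without overlap between the groups, and 24.7% of all tested features were lower without overlap. Of the 6 tested core subunits 2 fell and 0 rose, where 6.86% of all tested features fell and 5.95% rose. The median of the core subunits was -0.42.

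The largest negative fold change of any member was not a call. Ndufa12, an accessory subunit that shares sequence with the assembly factor Ndufaf2, was at 14.0, 7.97 and 11.7 FPKM in HKO, against 28.6, 20.7 and 12.2 FPKM in flox/flox livers. Flox/flox replicate 3 was as low as the HKO libraries, and the log2 fold change of -0.77 had a 95% interval from -1.54 to 0.01 (adjusted p = 0.151). Ndufb11 came close, at 102, 97.9 and 80.8 FPKM in HKO and 172, 125 and 142 FPKM in flox/flox (log2 -0.64, adjusted p = 0.0523). The most abundant gene with a complex I name was Ndufa4, at 150, 135 and 110 FPKM in HKO and 220, 173 and 184 FPKM in flox/flox (log2 -0.55, adjusted p = 0.0738).

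One core subunit was missing from the measured set. Ndufs3, which encodes the 30 kDa core subunit, had 0 reads in the HKO libraries and 1 read in the flox/flox libraries. An unnamed feature, which the deposited table annotates with the protein domain of that subunit, was placed on the contig CHR_MG191_PATCH (90894628 to 90904730, minus strand). It was at 10.3, 1.77 and 7.87 FPKM in HKO, against 32.3, 45.7 and 4.81 FPKM in flox/flox, with overlap between the groups (log2 -1.68, adjusted p = 0.224). It has no biotype and is not counted among the members. Ndufb2, another accessory subunit, was close to the 1 FPKM limit, with 0.711 to 1.15 FPKM in HKO and 1.24 to 1.49 FPKM in flox/flox libraries.

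The assembly factors help build complex I and are not in the finished enzyme. Of 8 tested by limma, 0 fell and 0 rose, with 3 lower and 0 higher at an unadjusted p under 0.05. Of all tested features 6.86% fell and 5.95% rose, and at that unadjusted p 19.8% were lower and 14.0% higher. Of the 8 assembly factors 4 had positive and 4 negative fold changes, where 56.4% of all tested features had negative ones. The median of the assembly factors was 0.03, against -0.49 for the subunits, a difference that was not tested. With library totals the median was 0.35, above the 0.26 of all features, and again none was called. Ndufaf1, with the highest mean over all 6 libraries, was at 19.7, 19.2 and 23.7 FPKM in HKO, against 16.7, 21.0 and 17.9 FPKM in flox/flox (log2 0.16, adjusted p = 0.440). Ndufaf4 and Ndufaf3, which act together in assembly, had fold changes of opposite sign. Ndufaf4 was at 11.6, 11.3 and 16.5 FPKM in HKO, against 7.24, 13.3 and 8.76 FPKM in flox/flox, with overlap (log2 0.41, adjusted p = 0.270). Ndufaf3 was at 5.24, 4.17 and 4.25 FPKM in HKO, against 5.45, 6.93 and 7.35 FPKM in flox/flox, without overlap (log2 -0.45, adjusted p = 0.0795). Neither passed the test, so these directions are not calls. The Ndufaf2 value is uncertain, since 65.6% of its exon bases overlap a gene on the opposite strand and the labels give no strandedness.

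Complex II, succinate dehydrogenase, links the chain to the citric acid cycle and has no mitochondrially encoded subunit. Both catalytic subunits fell, where 6.86% of all tested features fell. Sdha, the flavoprotein that oxidises succinate (chromosome 13, 74322254 to 74350280, minus strand), was at 97.7, 107 and 86.9 FPKM in HKO, against 135, 145 and 152 FPKM in flox/flox livers (log2 -0.56, SE 0.13, adjusted p = 0.0401). Sdhb, the iron-sulfur subunit (chromosome 4, 140961203 to 140979193, plus strand), was at 68.3, 69.1 and 61.5 FPKM in HKO, against 95.2, 90.6 and 99.9 FPKM in flox/flox (log2 -0.52, SE 0.11, adjusted p = 0.0368). Neither gene overlapped between the groups, and 24.7% of all tested features were lower without overlap. The membrane anchors, which bind coenzyme Q, were lower in every HKO library too but did not pass. Sdhc was at 34.0, 35.6 and 30.1 FPKM in HKO, against 45.2, 37.3 and 43.9 FPKM in flox/flox (log2 -0.33, adjusted p = 0.125), and Sdhd, the most abundant of the 4, at 137, 157 and 145 FPKM in HKO, against 184, 178 and 165 FPKM in flox/flox (log2 -0.26, adjusted p = 0.187). With library totals the catalytic genes were at -0.16 and -0.12 and the anchors at 0.06 and 0.14, with adjusted p-values from 0.397 to 0.698.

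**Figure D4:**
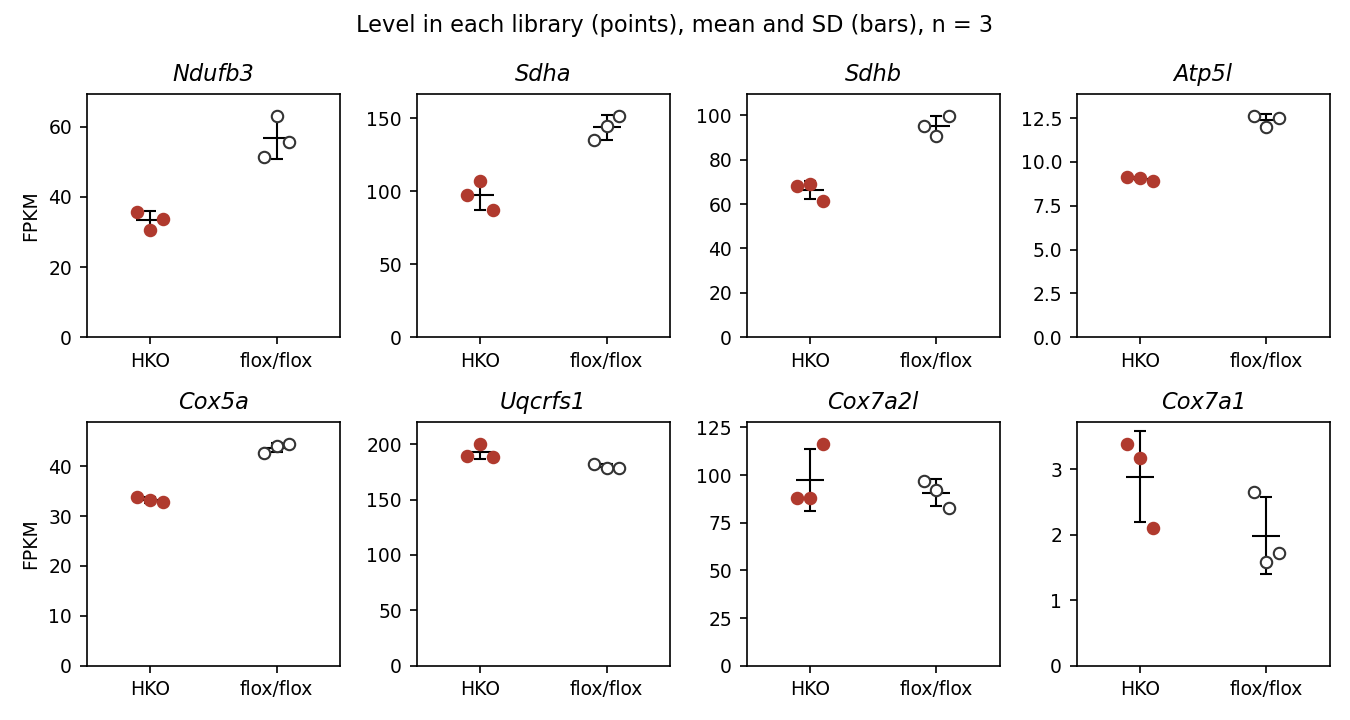
FPKM of 8 members in each library labelled HKO (filled, left) and flox/flox (open, right), with the mean and SD as bars (n = 3 each). The groups stand apart for Ndufb3, Sdha, Sdhb, Atp5l and Cox5a, with HKO lower, and for Uqcrfs1, with HKO higher by less than the other gaps, while Cox7a2l and Cox7a1 overlap.

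Complex III, which passes electrons from coenzyme Q to cytochrome c, had 8 tested genes, of which 0 fell and 0 rose by limma, with 3 lower and 0 higher at an unadjusted p under 0.05 and a median of -0.37. Negative fold changes were found in 6 of them, as in 56.4% of all tested features. Of all tested features 6.86% fell and 5.95% rose, and at an unadjusted p under 0.05 by limma 19.8% were lower and 14.0% higher. Uqcr11, a small subunit with the highest mean of the complex over all 6 libraries, was at 189, 162 and 144 FPKM in HKO, against 243, 195 and 201 FPKM in flox/flox (log2 -0.37, adjusted p = 0.157). Uqcrb varied most among the abundant ones, with 99.9, 82.9 and 59.0 FPKM in HKO and 129, 113 and 93.7 FPKM in flox/flox (log2 -0.49, adjusted p = 0.175). HKO replicate 3 was the lowest of the 6 libraries for both genes.

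Uqcrfs1, the Rieske iron-sulfur protein (chromosome 13, 30540308 to 30545362, minus strand), differed in sign from most of its partners. It was at 190, 200 and 189 FPKM in HKO livers, against 183, 178 and 179 FPKM in flox/flox livers. The groups did not overlap, but the difference was small, with a log2 fold change of 0.10 (95% interval -0.17 to 0.37, adjusted p = 0.569). With library totals it was 0.50 and passed (adjusted p = 0.0273), as it did with the common sum (0.50, adjusted p = 0.0229) and after quantile normalization (0.54, adjusted p = 0.0343). Uqcrc1, a core protein of the complex, was listed at only 1.59, 1.88 and 3.52 FPKM in HKO and 1.52, 1.53 and 1.78 FPKM in flox/flox (log2 0.31, adjusted p = 0.357). Its partner core protein Uqcrc2 was at 61.3 to 68.9 FPKM in HKO and 84.7 to 87.3 FPKM in flox/flox libraries.

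Complex IV, cytochrome c oxidase, had 12 tested genes, of which 1 fell, where 6.86% of all tested features fell. The median of the complex was -0.33. Cox5a (chromosome 9, 57521274 to 57532426, plus strand) was at 33.9, 33.1 and 32.7 FPKM in HKO, against 42.7, 44.0 and 44.4 FPKM in flox/flox livers. Its libraries agreed closely within each genotype, and its log2 fold change of -0.38 (SE 0.10) passed with an adjusted p of 0.0496. With library totals it was 0.01 with an adjusted p of 0.963. Of its exon bases 12.8% overlap an opposite-strand gene. Cox6a1, the most abundant member of all 92, was at 353, 335 and 354 FPKM in HKO, against 517, 374 and 419 FPKM in flox/flox (log2 -0.32, adjusted p = 0.212). Cox4i1, the largest nuclear subunit, was at 195, 190 and 191 FPKM in HKO and 318, 223 and 240 FPKM in flox/flox (log2 -0.42, adjusted p = 0.125). In both, the HKO libraries were nearly equal and flox/flox replicate 1 was far above the other 2 flox/flox libraries.

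Several subunits of complex IV come in tissue-restricted isoforms, and in both genotypes nearly all of their FPKM came from the ubiquitous forms. Cox4i1 made up 99.8% of the summed FPKM of Cox4i1 and Cox4i2 in HKO and 99.9% in flox/flox livers, and Cox6a1 made up 99.8% of its pair in HKO and 100% in flox/flox, with the muscle form Cox6a2 as the remainder. Cox8a was at 348, 318 and 306 FPKM in HKO and 387, 348 and 385 FPKM in flox/flox (log2 -0.21, adjusted p = 0.307). The muscle form Cox8b had 2 reads in the HKO libraries and 0 in flox/flox, and Cox8c and Cox7b2 had 0 reads in all 6 libraries. Cox6b1 was at 187, 160 and 148 FPKM in HKO and 225, 189 and 216 FPKM in flox/flox (log2 -0.35, adjusted p = 0.146).

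In 3 pairs the share of the rarer form was higher in all 3 HKO libraries than in all 3 flox/flox libraries, without a test. Cox6a2 was at 0.228, 0.242 and 1.71 FPKM in HKO, against 0.0996, 0 and 0 FPKM in flox/flox, which was 32 against 1 read in all. Cox6b2, known as the testis form, was at 0.746, 1.29 and 0.890 FPKM in HKO, against 0.306, 0.176 and 0.119 FPKM in flox/flox, which was 64 against 10 reads in all. Both were under the limit of 1 FPKM on average. Cox7a1, the heart and muscle form, was at 3.38, 3.17 and 2.09 FPKM in HKO, against 2.66, 1.58 and 1.72 FPKM in flox/flox, with overlap (log2 0.38, adjusted p = 0.220), and it rose with library totals (log2 0.66, adjusted p = 0.0340). It made up 3.04 ± 0.57% of the Cox7a1 and Cox7a2 sum in HKO and 1.77 ± 0.43% in flox/flox livers (SD, n = 3 each). All 3 genes rested on few reads, at most 26 per library for Cox6a2 and Cox6b2 and 13 to 35 for Cox7a1. Cox7a2, the liver form, was at 95.4, 92.3 and 85.8 FPKM in HKO and 115, 105 and 108 FPKM in flox/flox (log2 -0.26, adjusted p = 0.164). Cox7a2l, which joins complexes III and IV in supercomplexes, was at 88.1, 87.8 and 116 FPKM in HKO, against 96.8, 92.4 and 82.9 FPKM in flox/flox (log2 0.09, adjusted p = 0.713). Without HKO replicate 3, its highest library, the sign of Cox7a2l turned, with a log2 fold change of -0.04.

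Complex V, the ATP synthase, had 16 tested genes, all with negative fold changes, where 56.4% of all tested features had them. Of the 16 genes 1 fell, where 6.86% of all tested features fell. The median of the complex was -0.40. With library totals the median was 0.00. Atp5l, subunit g of the membrane part (chromosome 9, 44912557 to 44920742, minus strand), was at 9.12, 9.11 and 8.93 FPKM in HKO, against 12.6, 12.0 and 12.5 FPKM in flox/flox livers. It had the smallest standard error of the named members, and its log2 fold change was -0.41 (SE 0.09, adjusted p = 0.0358). Atp5b, the catalytic beta subunit and the most abundant of the complex, was at 282, 276 and 232 FPKM in HKO, against 336, 322 and 331 FPKM in flox/flox (log2 -0.33, adjusted p = 0.141). Its partner in the catalytic head, Atp5a1, was listed far lower, at 4.56 to 8.49 FPKM in HKO and 7.84 to 9.47 FPKM in flox/flox libraries.

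The c ring is made from 3 genes that encode the same mature protein with different import sequences. Atp5g3 gave 65.9 ± 0.5% of their summed FPKM in HKO and 67.7 ± 0.9% in flox/flox livers, Atp5g2 24.0 ± 1.0% in HKO and 21.8 ± 1.4% in flox/flox, and Atp5g1 10.1 ± 1.3% in HKO and 10.5 ± 1.0% in flox/flox (SD, n = 3 each). The order of the 3 genes was the same in all 6 libraries. Atp5g3 was at 132, 121 and 116 FPKM in HKO, against 168, 150 and 158 FPKM in flox/flox (log2 -0.36, adjusted p = 0.0907). Atp5g2 was at 47.6, 42.8 and 44.2 FPKM in HKO, against 58.5, 46.9 and 47.7 FPKM in flox/flox (log2 -0.18, adjusted p = 0.380), and Atp5g1 at 22.5, 19.0 and 15.2 FPKM in HKO, against 25.0, 21.6 and 27.1 FPKM in flox/flox (log2 -0.37, adjusted p = 0.173).

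Fold changes were set beside the level of the genes. Of the 21 members with a mean of 100 FPKM or more, 2 fell, where 26.7% of all features at that level fell, and the members' median was -0.36 against -0.47 for all. Of the 53 members from 10 to 100 FPKM 14 fell, where 11.5% of all such features fell, with a median of -0.43 for members and -0.20 for all. None of the 11 members from 1 to 10 FPKM fell, where 3.77% of all such features did. All HKO values lay under all flox/flox values in 18 of 21 members and 265 of 472 features at 100 FPKM or more. From 10 to 100 FPKM the counts were 46 of 53 and 1187 of 3056, and below that 2 of 11 and 1282 of 7558. Fold changes were negative in 20 of 21 members and 378 of 472 features at 100 FPKM or more. From 10 to 100 FPKM the counts were 50 of 53 and 2148 of 3056, and below that 6 of 11 and 3732 of 7558. Across genes, Spearman's rho between fold change and mean level was -0.21 over the 85 members and -0.31 over all 11086 features. Genes are not independent replicates, and all values share the same 6 libraries.

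Other genes of the pathway were read from lists by function. Of all tested features 6.86% fell and 5.95% rose. The 13 mitochondrially encoded subunits held 4.43 ± 0.23% of the reads of HKO libraries, against 4.60 ± 0.21% of those of flox/flox (SD, n = 3 each), and 3 fell and 1 rose, with a median of -0.46. The riser, mt-Nd4l, was at 128, 68.8 and 93.9 FPKM in HKO, against 41.0, 23.5 and 31.4 FPKM in flox/flox (log2 1.56, adjusted p = 0.0245), and its reading frame overlaps that of mt-Nd4, which was among those that fell (log2 -0.63, adjusted p = 0.0496), as was mt-Nd6 (log2 -0.84). Poly(A) selection catches mitochondrial transcripts unevenly. Among 10 electron carriers and chain subunits with other names 3 fell and 0 rose. They were Cyc1 (log2 -0.54), the cytochrome of complex III, with Etfb (log2 -0.66) and Etfdh (log2 -0.67), which bring electrons from fatty acid oxidation to coenzyme Q.

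The genes that build and control the chain were read against the 6.86% of all features that fell and the 5.95% that rose. Of 39 assembly factors with other names 1 fell, Ecsit (log2 -0.56), a complex I assembly factor, and 0 rose, with a median of -0.06. Of 12 genes of coenzyme Q synthesis 2 fell, Coq10b (log2 -0.91) and Coq10a (log2 -0.65), which bind coenzyme Q, and 1 rose, Coq8b (log2 0.56). Of 17 regulators of mitochondrial biogenesis 1 fell, Tfb2m (log2 -0.62), a factor of mitochondrial transcription, and 0 rose. Ppargc1a, the coactivator that drives biogenesis, was at 3.36, 1.82 and 2.46 FPKM in HKO, against 11.2, 1.58 and 2.04 FPKM in flox/flox. The groups overlapped (log2 -0.39, limma adjusted p = 0.674). Flox/flox replicate 1 was the highest for this gene and, in FPKM, the highest of its group for most members. As a share of reads the members were lowest of that group in this library (0.956%). A link between Ppargc1a and the members was not tested. In the pyruvate dehydrogenase and citric acid cycle list 2 of 17 fell, Dlat (log2 -0.59) and Sucla2 (log2 -0.51), with a median of -0.31. The 75 tested mitochondrial ribosomal proteins had 6 falls and 6 rises with a median of -0.10, the largest rises in Mrpl43 (log2 0.89), Mrps2 (log2 0.83) and Mrps6 (log2 0.74), and the 84 tested cytosolic ribosomal proteins had 0 calls, with 1 lower and 5 higher at an unadjusted p under 0.05, and a median of 0.15. Of all tested features 19.8% were lower and 14.0% higher at an unadjusted p under 0.05 by limma. With library totals no gene of these 8 lists fell, where 1.92% of all features did. With that scaling 35 cytosolic and 17 mitochondrial ribosomal protein genes rose, with 7 of the assembly factors, 2 of the coenzyme Q genes and 1 each of the electron carriers, the mitochondrially encoded subunits and the regulators, where 19.2% of all features rose.

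Markers of cell types moved between the genotypes as well. Summed FPKM of 10 hepatocyte markers was 27442 to 47686 in HKO and 54961 to 89320 in flox/flox libraries, with 2 markers lower and 0 higher. The 9 Kupffer cell and macrophage markers summed to 351 to 441 FPKM in HKO and 65.7 to 254 FPKM in flox/flox, with 3 higher, and 8 stellate cell markers to 61.4 to 79.7 FPKM in HKO and 34.1 to 43.9 FPKM in flox/flox, with 4 higher. All 3 tested neutrophil markers were higher, at sums of 5.43 to 11.5 FPKM in HKO and 1.25 to 1.90 FPKM in flox/flox, and none of the 7 sinusoidal endothelial markers was called. Of the cholangiocyte markers 1 of 2 tested was higher, as was the 1 tested T and NK cell marker, no B cell marker could be tested, and none of 5 tested erythroid markers was called. No marker was at 0 in all libraries. Of all tested features 6.86% were lower and 5.95% higher. The marker sums and calls use the authors' scaling, and values with library totals are not given. With the authors' scaling all features summed to 318212 to 360226 FPKM in HKO and 453837 to 542601 FPKM in flox/flox libraries. Apart from tissue-restricted forms, the members are genes of every cell with mitochondria. The part of these markers in the levels of the members was not tested.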

How the data were processed

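Poly(A) RNA from whole liver was sequenced; reads were paired-end, per the series' design text. Per the submitters' processing notes, HISAT2 2.0.5, featureCounts 1.5.0-p3, DESeq2 1.16.1 and the build GRCm38.p6 are named. The authors deposited FPKM for 54086 features, 285 of them unnamed. In every library 100% of the deposited FPKM values times gene length were whole multiples of 1 step within 0.01 read, and the steps gave the read totals. The depth factor in the FPKM equalled a median-of-ratios size factor, times a constant, and not the library's total. Whether each library came from its own animal is not stated, and p-values then reflect only how these libraries vary. Replicates differed beyond sampling noise (chi-square over degrees of freedom, 17.3 to 95.8), which does not show that they came from separate animals. Each library was counted as a replicate. Intervals cover the spread between libraries.

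Log2(FPKM + 1) was fitted over the 11086 features averaging 1 FPKM or more with limma 3.58.1 in R 4.3.3, with genotype as the only term, an intensity trend, and a two-sided Benjamini-Hochberg adjusted p under 0.05 over all features. Fold changes are HKO minus flox/flox on that scale, which understates changes of low genes. The test was tried on simulated data. Complexes follow gene names. The values of 1 member are counted in groups but not reported here by name. Named members are the most abundant of each complex, up to 4 called members with the largest change and any that rose, all Sdh genes, paired isoforms, and others chosen after their values were seen (among them Ndufa12, Ndufb11, Ndufaf3, Ndufaf4, Uqcrb, Uqcrfs1 and Uqcrc1). From each list up to 3 called genes are named, and Ppargc1a, which was not called, is named outside this rule. Members and lists were chosen with earlier results of these data known. Exon overlap is from GENCODE M21, where 32 members share an exon base with another gene and 12 share over 10% of theirs. Promoter windows are from RefSeq. Python 3.11.15, numpy 2.4.6, pandas 2.3.3 and matplotlib 3.10.9 were used for counts and figures. The alternatives changed the pseudocount, filter, scaling, variance model, features fitted, length trend, block and libraries.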

Additional observations from a re-analysis of the deposited data

How the results depend on the processing

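Counts of members lower depended on scaling and on single libraries, and no cause was tested. With the common sum, library totals, quantile normalization and the replicate block, 0 members were lower overall and 0 in complexes I (subunits), II, IV and V; 2, 2, 1 and 0 were higher. Median of ratios left 5 and no filter 2, all in complex I, with 0 in II, IV and V. Length correction left 1 in complex II and 0 in IV, and a pseudocount of 0.1 left 0 in IV. The 5 FPKM filter, protein-coding genes only and voom gave 2 in complex V. Leaving out 1 library gave 0 to 11 lower members: 0 to 7 complex I subunits, 0 to 1 assembly factors, 0 to 2 in complex II, 0 in IV and 0 to 1 in V.

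Signs turned mainly with scaling (log2, common sum then library totals). The median of complex III was 0.032 and 0.035 and that of IV 0.068 and 0.070; that of V turned only with library totals, at 0.00075. Sdhc was 0.060 and 0.062, Sdhd 0.14 and 0.14, Uqcr11 0.030 and 0.033, Cox6a1 0.084 and 0.087, Cox5a 0.0070 and 0.0095, Cox6b1 0.051 and 0.054, Cox7a2 0.14 and 0.14, Cox8a 0.19 and 0.20, Atp5b 0.072 and 0.074, Atp5g1 0.013 and 0.015, Atp5g2 0.22 and 0.22, Atp5g3 0.038 and 0.041. With quantile normalization the medians of III and IV were 0.082 and 0.12, and Sdhd was 0.19, Uqcr11 0.095, Cox6a1 0.29, Cox4i1 0.076, Cox6b1 0.12, Cox7a2 0.13, Cox8a 0.37, Atp5b 0.23, Atp5g2 0.11, Atp5g3 0.039. The assembly factor median was -0.10 with the 5 FPKM filter. Leaving out 1 library, Cox7a2l ran from -0.041 (without HKO replicate 3) to 0.16.

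Replicate numbers did not pair the samples: deviations of same-numbered libraries correlated at -0.003, -0.100 and -0.067. Calls at 3 against 3 libraries rest on small spreads, and leaving out 1 library also costs residual degrees of freedom. Genes under 1 FPKM on average were tested only without the filter.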
